A study of Mus musculus with 7 samples.

Results

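Nonsense-mediated decay transcripts are annotated transcript models whose stop codon lies upstream of a splice junction, and non-stop decay transcripts are models that end without a stop codon. All transcripts of either GENCODE M21 biotype in the deposited transcript tables were taken, which gave 3636 of 69994 transcripts (5.19%), 3620 of the nonsense-mediated and 16 of the non-stop class. They are called decay-class transcripts here, by annotation alone, since no measure of RNA decay was made. In the cells kept by the authors 3223 of them had at least 1 UMI (unique molecular identifier, which counts molecules), in 2460 genes. Library 1 held 2666 of them, library 2 held 2701, and 2144 were found in both.

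Nonsense-mediated decay is a surveillance pathway that degrades mRNAs on which translation ends too early. A stop codon more than about 50 bases before the last exon junction leaves an exon junction complex on the mRNA, and the helicase UPF1 with partners such as UPF2 and UPF3B then triggers decay. Cells also use the pathway as a switch: many splicing regulators include a "poison" exon in their own mRNA and so lower their own level. Islets hold the hormone-secreting alpha (glucagon), beta (insulin), delta (somatostatin) and PP (pancreatic polypeptide) cells beside endothelial, stellate and immune cells.

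The last 30 coding bases, with the stop codon in capitals, are given for 10 transcripts on which the results turn: the 6 genes with the most decay-class UMIs and 4 whose share of their gene differed between cell types. The sequences are of the GENCODE M21 models on GRCm38 (mm10), read 5′ to 3′ on the strand of the gene.
Tmem234-210: acggacgagcccctgaaaatttcaccaTAG
Usp50-203: aagatcaaaaagcatcacattaaacttTAG
Cbx1-204: ggagagctcatgttcctgatgaaatggTGA
Cdipt-207: ctgcatctgcacagttcctccgctcagTGA
T2-202: tactgggtgaacaatgtggatgaagaaTAA
Slc35b1-202: agccaatcccagttatgctcctgggagTGA
Clk1-210: tcacacgggatgaaattgttgatacttTAG
Tsc22d1-213: ggtcactgcctccttaatgctgagatgTAA
Rpl22l1-204: ataggaacagtttctacgggagaaggtTAA
Eif4a2-217: ttgcattggaggaacaaatgttcgaaaTGA
These stop codons lie at chr4:129601177-129601179 (Tmem234, plus strand), chr2:126733166-126733168 (Usp50, minus), chr11:96802824-96802826 (Cbx1, plus), chr7:126978879-126978881 (Cdipt, plus) and chr17:8422153-8422155 (T2, plus). The others lie at chr11:95387785-95387787 (Slc35b1, plus), chr1:58419713-58419715 (Clk1, minus), chr14:76437757-76437759 (Tsc22d1, plus), chr3:28806760-28806762 (Rpl22l1, plus) and chr16:23110065-23110067 (Eif4a2, plus). Their distance to the last junction of the mRNA was 224, 222, 172, 197, 104, 528, 809, 218, 96 and 648 bases, in the order printed. Each is thus beyond the distance of 50 bases. The stop of Cbx1-204 and of T2-202 is the stop of the gene's reference coding transcript, and the junction that puts them in the class lies behind it. T2-202 also has an intron inside a reference exon, and 552 coding bases where the reference has 1182.

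The samples were islet cells of female C57BL/6 mice aged 10 weeks, without a treatment or genetic change, loaded for a target of 4000 cells. Both libraries used here were made by the 5′ droplet protocol with added 10 mM dNTP and longer extension (2 h for 45 min in one step and 3 min for 1 min in another). Insulin cDNA had been depleted with Cas9 before Nanopore long-read sequencing, which lowers the insulin transcripts of beta cells in every comparison below. The other 5 samples of the series are not analysed here.

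Library 1 held 4814 kept cells and 9509266 transcript UMIs, with a median of 1831.5 per cell, and library 2 held 1093 cells and 10807831 UMIs, with a median of 8834. The libraries shared 5 cell barcodes. Transcript UMIs came to 86.4% and 89.4% of the UMIs in the authors' gene table, so a molecule can be counted for a gene and for none of its transcripts. Cell types are the names the authors gave to their clusters from gene counts, and each hormone type as a whole carried its own markers. The delta class is mixed, as its clusters 8, 12, 14 and 16 held more of another type's markers than of delta markers in both libraries. Cluster 8 had 91700 and 73200 CPM of beta markers (UMIs per 1000000 UMIs of the sum) against 61900 and 48300 CPM of delta markers. Cluster 12 had 165000 and 121000 CPM of alpha markers against 75900 and 57000 CPM of delta markers. Cluster 14 had 74000 and 69800 CPM of beta markers against 21800 and 7880 CPM of delta markers. The class named endothelial is mixed too: cluster 11 carried endothelial markers at 17000 and 15200 CPM, whereas cluster 15 had 0 and 3.45 CPM of them and 23400 and 21700 CPM of duct markers. Cluster 15 made up 12 of the 141 cells of the class in library 1 and 16 of 26 in library 2. Cluster 16, named delta, had nerve markers at 9100 and 8220 CPM against 0 and 50 CPM of delta markers, and 7 cells in each library.

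The members shared a structure that the biotype is defined by. Of the 3207 with an annotated stop codon, 3190 (99.5%) had it more than 50 bases before the last junction, against 0.498% of the detected protein-coding transcripts. The median distance was 390 bases, with a median of 3 junctions behind the stop. Their coding part was short, with a median of 333 bases against 1101 in protein-coding transcripts, and a median of 30.2% of that of the reference, which is the gene's protein-coding transcript with the most UMIs. The start codon was that of the reference in 2273 of the 2503 members in which both are annotated, so most models begin translation at the usual site and end it early. The stop codon was the reference one in 177 of the 3082 members in which both are annotated, and these 177 held 11.9% of the UMIs of the 3082.

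An alternative splice site was the most frequent change from the reference transcript. It was found in 1150 members with 41.0% of the UMIs, an extra exon in 980 (25.9%), a skipped exon in 901 (18.5%) and a retained intron in 201 (7.55%). The percentages are over the 3167 members whose gene had a detected protein-coding transcript. These 3167 held 97% of the decay-class UMIs. A member can hold more than 1 of these changes. Tmem234-210, Cdipt-207 and Slc35b1-202 differ from their references by a splice site, Clk1-210 and Eif4a2-217 by a skipped exon, Slc38a6-201 and Hmgxb4-206 by an extra exon, and Tmem208-204 and Pigb-204 by a retained intron. TGA was the stop of 56.4% of the members with an annotated stop and of 50.0% of the protein-coding transcripts. The models were less firmly annotated than coding ones: transcripts of support level 1, the best of GENCODE's levels, held 49.7% of decay-class UMIs and 89.1% of protein-coding UMIs. Models tagged as incomplete at an end held 10.7% and 0.604%.

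Decay-class transcripts made up a small part of the islet mRNA molecules. They held 37544 UMIs in library 1 and 42335 in library 2. Nonsense-mediated decay models took 0.390% and 0.389% of all transcript UMIs and non-stop models 0.00432% and 0.00298%. Retained-intron models took 2.77% and 2.44% in the same libraries, and protein-coding ones 87.8% and 88.5%.

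Among cell types the share was highest in the endothelial class, at 0.503% (95% interval 0.470 to 0.538) in library 1 and 0.560% (0.534 to 0.586) in library 2, with a mean of 0.531% ± 0.0399 (SD, n = 2). Alpha cells had the lowest, at 0.304% (0.296 to 0.313) and 0.337% (0.330 to 0.345), with a mean of 0.321% ± 0.0234 (SD, n = 2). Between them, beta cells had 0.425% and 0.409%, stellate cells 0.403% and 0.432%, delta cells 0.424% and 0.391%, PP cells 0.333% and 0.391%, and macrophages 0.341% and 0.346%. The intervals are exact binomial ones and cover counting error only. Endothelial and alpha cells held the first and the last place in both libraries. Stellate cells changed places with beta and delta cells between the libraries, and beta cells lay above delta cells in both. Beta, stellate and delta means were 0.417% ± 0.0114, 0.417% ± 0.0204 and 0.407% ± 0.0232 (SD, n = 2), and differed by less than these SDs. The beta and delta intervals overlapped in library 1 but not in library 2 (0.402 to 0.415 and 0.385 to 0.397). The alpha share was below the beta share in each library, with a mean difference of -0.0957 points ± 0.0348 (SD of the 2 differences). No test is given of a share summed over the members, whose list was chosen with results known.

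In single cells the endothelial class was again highest, and alpha cells were lowest among the 6 types tested below. The median share per cell was 0.299% and 0.333% in alpha cells, 0.410% and 0.404% in beta cells and 0.479% and 0.581% in endothelial cells. In macrophages it was 0.312% and 0.283%, below the alpha median in library 2, where only 7 macrophages were captured. In library 1 the middle 50% of beta cells lay between 0.309% and 0.525%, and in library 2 between 0.347% and 0.459%. A median alpha cell held 5 different decay-class transcripts in library 1 and 26 in library 2, and a median beta cell 8 and 31, which follows the depth of the libraries. No decay-class UMI was found in 20 of 961 alpha cells and 9 of 2284 beta cells of library 1, and in library 2 every cell of these types had at least 1. When cells were thinned to 1000 UMIs each, leaving out 106 alpha and 152 beta cells of library 1 that were shallower, the alpha share was 0.303% and 0.339% and the beta share 0.424% and 0.407%.

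**Figure D1:**
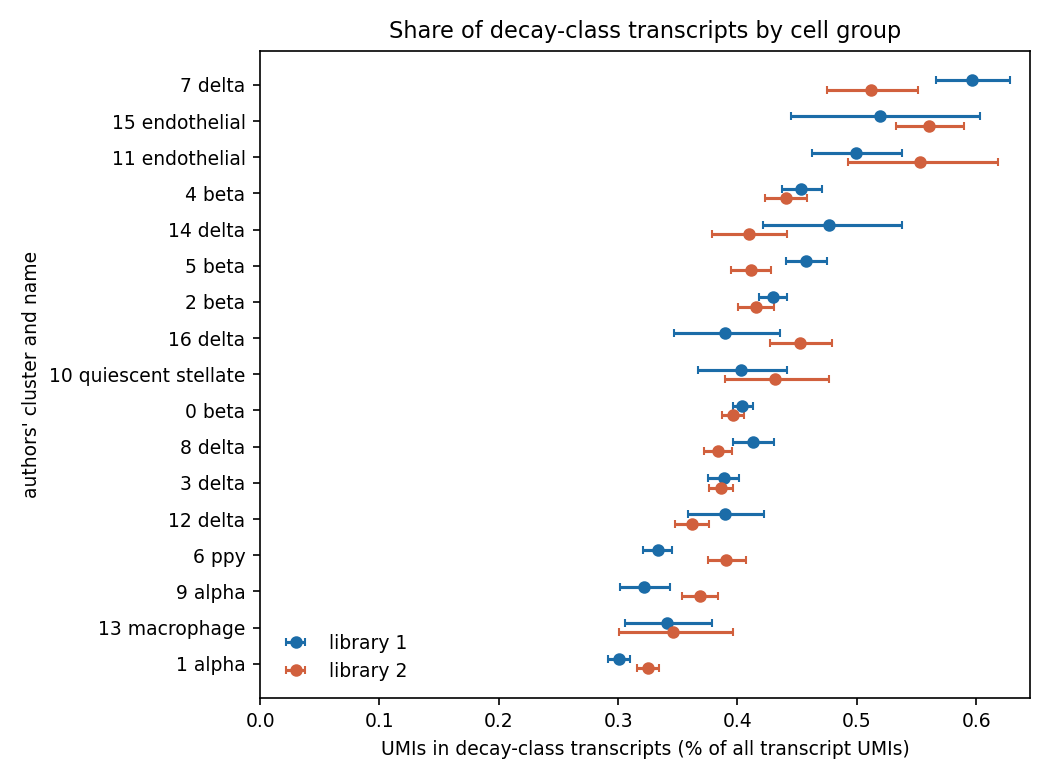
Share of transcript UMIs in decay-class transcripts (horizontal axis, percent) in each of the authors' 17 clusters, with 1 point per library and exact 95% binomial intervals. Cluster 7, named delta, and the 2 endothelial clusters lie at the top, and cluster 1, named alpha, lies lowest in both libraries.

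The authors' 17 clusters spread more widely than the types. Cluster 7, named delta, had 0.597% and 0.512%, whereas cluster 3, also named delta, had 0.389% and 0.386%. Cluster 7 also held 7.24% and 6.32% of its UMIs in retained-intron models, against 2.94% and 2.44% in cluster 3, and its markers were mixed: beta markers came to 44500 CPM and delta markers to 28000 CPM in library 1, and in library 2 to 24100 and 78100 CPM. The part of these features in its share was not tested. Both endothelial clusters were high, at 0.499% and 0.553% in cluster 11 and 0.520% and 0.561% in cluster 15, the cluster with duct markers. Among alpha cells, cluster 1 was lowest of all 17 at 0.301% and 0.325%, and cluster 9 had 0.322% and 0.368%. Over the 17 clusters the shares of the libraries had a Spearman rho of 0.77, as a description, since both libraries share the clustering. The rho of the share with the mitochondrial percentage was 0.735 in library 1 and 0.152 in library 2.

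The order of the hormone cell types turned on what the decay-class UMIs were divided by. Hormone genes (9, with insulin, glucagon, somatostatin and pancreatic polypeptide among them) held no decay-class UMI and took 41.6% and 29.2% of all UMIs in alpha cells, 36.6% and 30.1% in PP cells, 24.1% and 22.4% in delta cells, 15.6% and 13.6% in beta cells and 1.12% and 0.309% in the endothelial class. Without these genes in the denominator the alpha share was 0.521% and 0.477% and the beta share 0.503% and 0.473%, a mean difference of 0.0111 points ± 0.00986 (SD). Delta cells then had 0.559% and 0.504%, PP cells 0.525% and 0.559%, and the endothelial class 0.509% and 0.561%. The endothelial class was thus no longer apart from the hormone cells, and stellate cells, at 0.419% and 0.447%, lay below all 4 of them.

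Another reckoning gave every hormone type the same mix of 1240 genes, so that only shares within genes could differ. Alpha cells then had 0.167% in each library, and beta cells 0.149% and 0.156%. Delta cells had 0.155% and 0.153%, and PP cells 0.153% and 0.184%. Alpha cells were therefore above beta cells in both libraries by this measure, by a mean of 0.0145 points ± 0.00535 (SD), the opposite of the order over all UMIs. Delta and beta cells differed by 0.00152 points ± 0.00657, within their spread.

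**Figure D2:**
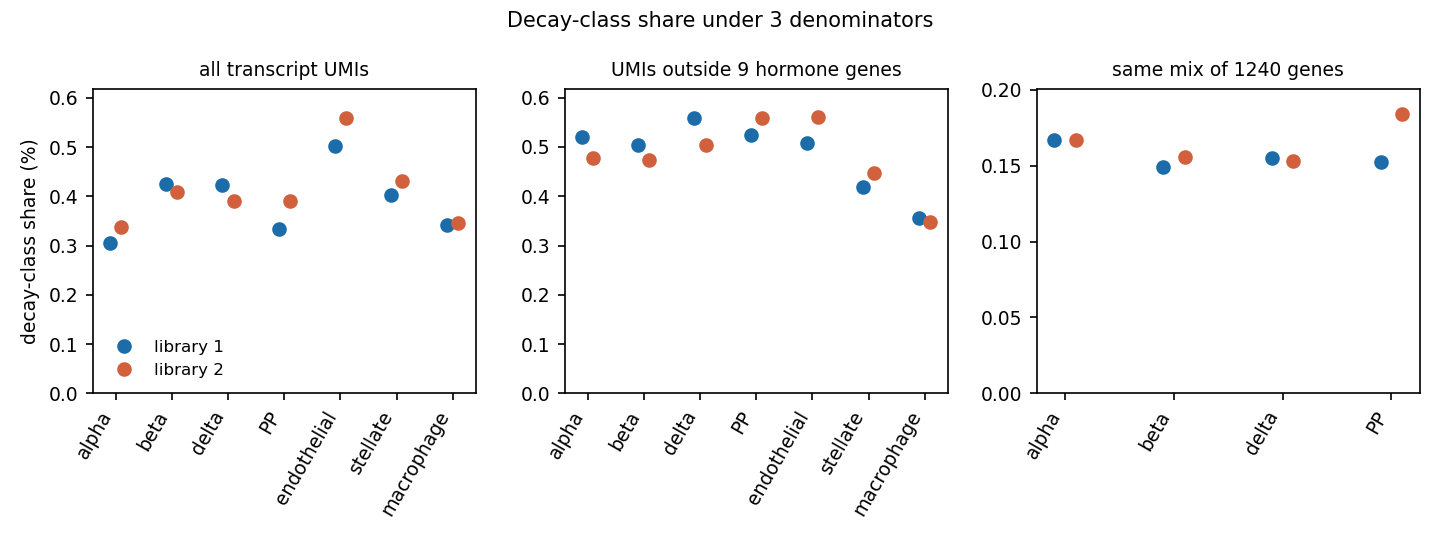
Decay-class share (vertical axis, percent; the right panel has its own scale) by cell type with 1 point per library, over all transcript UMIs, over UMIs outside 9 hormone genes, and with the same mix of 1240 genes in each hormone type. Alpha cells are lowest in the left panel, at 0.304% and 0.337%, and lie above beta cells in the middle panel and the right panel.

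Within genes, the decay-class share was usually small and was repeatable between libraries. Of 9298 genes with at least 50 transcript UMIs in each library, 1761 (18.9%) held a decay-class UMI. Their median share was 2.00%, as the mean of the libraries. In 678 of them the share was under 1%, in 350 it was over 10%, and in 40 it was over 50%. Spearman's rho of the share between libraries over these genes was 0.82, a description across genes, which are not independent replicates. A transcript share depends on how many of a gene's molecules could be given to any transcript: a median of 62.6% of gene-table UMIs were so given in these genes and 86.2% in genes without decay-class UMIs. Measured against the gene table, the median share was 1.01%, and 185 genes were over 10%.

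Genes with 50 or more UMIs within a cell type gave the same range. In beta cells 222 of 7197 such genes (3.08%) in library 1 and 176 of 6304 (2.79%) in library 2 had a decay-class share over 10%. The figures were 58 of 2909 (1.99%) and 97 of 3563 (2.72%) in alpha cells, and 107 of 4587 (2.33%) and 192 of 6350 (3.02%) in delta cells. In PP cells they were 34 of 1817 (1.87%) and 28 of 1318 (2.12%), and in the endothelial class 2 of 470 (0.426%) and 16 of 1035 (1.55%). The percentage was higher in whichever library gave a type more genes above 50 UMIs in alpha, beta, delta and endothelial cells. It was not so in PP cells, nor in stellate cells and macrophages, which had 1 gene over 10% in each library. The part of depth was not tested.

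A few genes carried much of the total. The 20 genes with the most decay-class UMIs held 21.3% of them and the top 100 held 48.9%, whereas 1508 genes had only 1 to 10. Tmem234, which encodes a transmembrane protein, came first with 848 and 876 UMIs, 2.16% of all decay-class UMIs, spread over 11 models. They made up 45.0% and 41.8% of the gene's transcript UMIs, and Tmem234-210 alone 23.3% and 21.6%. Among hormone cells its share ran from 17.2% in beta cells of library 2 to 32.3% in PP cells of library 2, and in both libraries beta cells were the lowest hormone type, with 21.5% in library 1. The gene overlaps Dcdc2b on the other strand, and no source used here tells whether counting took strand into account.

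Usp50, a member of the ubiquitin-specific protease family, came second with 387 and 1244 UMIs, all in Usp50-203. No other transcript of this gene had UMIs, so its share was 100%, but its transcript UMIs came to 170% of its gene-table UMIs. The model spans Gm10774 on the same strand, and its molecules cannot be told apart from that gene's. Cbx1, which encodes the heterochromatin protein HP1 beta, had 735 and 694 UMIs (89.7% and 92.3%). In hormone cells Cbx1-204 took between 86.7% and 95.5% of the gene in every type and library. Cdipt, the phosphatidylinositol synthase, had 465 and 552 UMIs (88.2% and 92.2%).

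T2 had 616 and 381 UMIs and a share of 74.0% and 74.1%, and beta cells held 562 and 317 of them. Slc35b1, a nucleotide transporter of the endoplasmic reticulum, had 515 and 446 UMIs (28.7% and 23.7%). Srsf7, an SR splicing factor, had 315 and 514 (22.0% and 25.8%), all in Srsf7-203, which holds an extra exon and another splice site. Srsf7-203 took 20% to 30.4% of the gene in hormone cells. In the endothelial class it took 25.5% of 47 UMIs in library 1 and 54.7% of 117 in library 2, so that the libraries differed more there than the hormone types did. Cluster 15, with duct markers, held 32912 of the 170718 transcript UMIs of this class in library 1 and 269210 of 324367 in library 2. Library and mix of cells therefore cannot be told apart there.

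The next genes in order were Cuta (14.8% and 16.9%), Mrps34 of the mitochondrial ribosome (22.9% and 30.5%), Smdt1, a subunit of the mitochondrial calcium uniporter (7.21% and 7.52%), and Rpl22l1, a paralogue of ribosomal protein L22 (2.13% and 7.50%). Rpl22l1 was the one of the 20 whose UMIs differed most between libraries as a ratio, with 60 and 628. Papola, a poly(A) polymerase, had 34.2% and 38.5%, Tmem208 23.8% and 25.9%, Echdc2 53.7% and 48.6%, and the lysosomal enzyme gene Aga 11.9% and 13.2%. Rabgap1l, a regulator of Rab GTPases, had 47.3% and 43.0%, the cold-inducible RNA-binding protein gene Cirbp 12.6% and 16.8%, Surf1, a cytochrome oxidase assembly factor, 32.5% and 29.6%, and Cdc26, a subunit of the anaphase-promoting complex, 23.4% and 30.1%. These shares mostly moved by a few points between libraries.

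Atp2a2, which encodes the calcium pump SERCA2 of the endoplasmic reticulum, shows how far the denominator matters. Atp2a2-203 took 89.5% and 71.9% of the gene's transcript UMIs, but only 7.20% of its gene-table UMIs had been given to any transcript. Against the gene table its share was 6.40% and 5.22%. Of the 40 genes over 50% by transcripts, 9 were over 50% against the gene table as well. Usp50, whose molecules cannot be told apart from those of Gm10774, is among these 9. Nupr1l, a paralogue of the stress protein gene Nupr1, was among the firmest, with 84.5% and 86.7% by transcripts and 83.8% and 85.5% by the gene table.

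**Figure D3:**
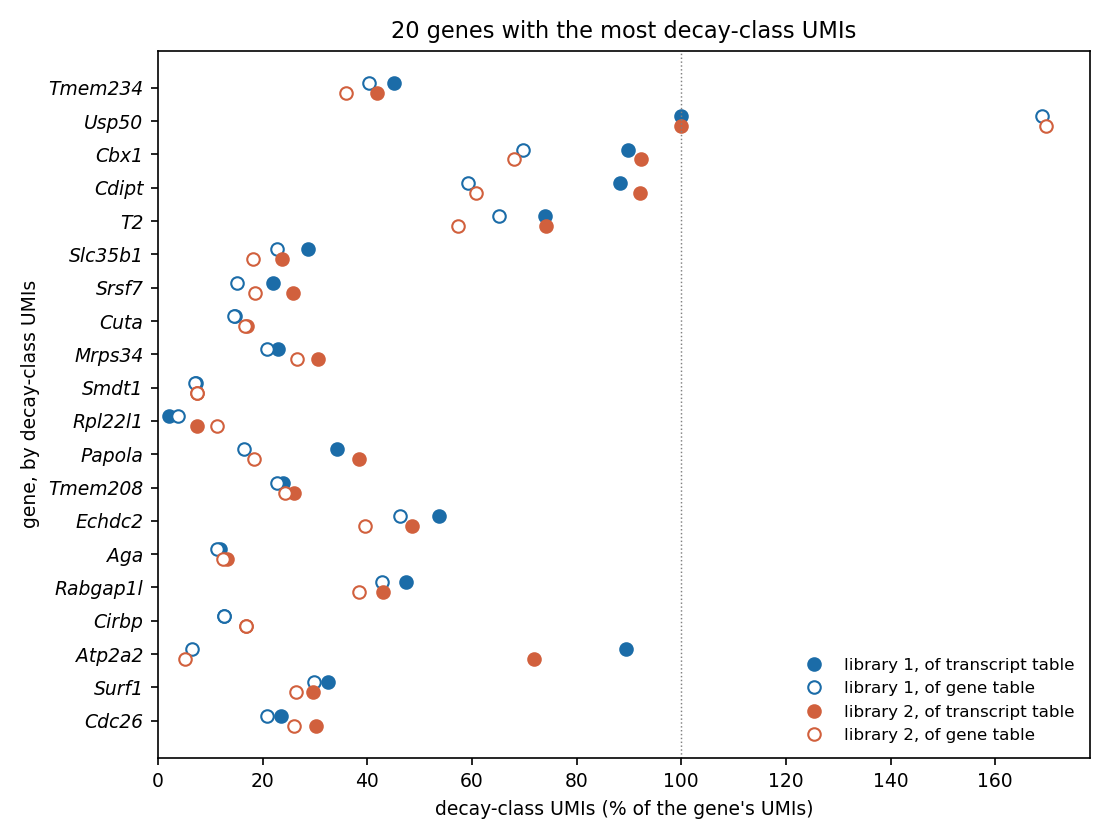
Decay-class UMIs as a percentage of the gene's transcript UMIs (filled points) and of its gene-table UMIs (open points) in the 20 genes with the most decay-class UMIs, by library. Atp2a2 falls from 89.5% and 71.9% to 6.40% and 5.22%, and Usp50 lies above 100% of the gene table.

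The 10 genes with the highest shares, among those with 50 decay-class UMIs in each library, were Usp50, Ces2f, Hmgxb4, Cbx1, Cdipt, Nupr1l, Pigb, Atp2a2, Ankrd39 and Khdrbs3. Ces2f, a carboxylesterase gene, had 84 and 68 UMIs, all in the decay-class model, which was 41.4% and 40.7% of its gene-table UMIs. Hmgxb4 had 94.0% and 91.7% by transcripts and 43.4% by the gene table in each library. Pigb, a mannosyltransferase of the glycosylphosphatidylinositol anchor, had 83.9% and 81.0% by transcripts and 22.3% and 20.1% by the gene table. Ankrd39 had 77.3% and 75.8%, and Khdrbs3, an RNA-binding splicing regulator, 75.0% and 77.7% by transcripts and 17.5% and 15.3% by the gene table. In Cbx1-204, Nupr1l-204, Pigb-204, Atp2a2-203 and Khdrbs3-202 the reading frame ends at the reference stop, and the junction that defines the class lies behind it.

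Splicing regulators, many of which are known to carry poison exons, held these transcripts often. The list of 48 splicing regulators holds SR and hnRNP genes and others such as Clk1, Snrpb and U2af1. Of these 48 genes, 30 held decay-class UMIs, 3770 in all, which was 4.72% of the total. Among all genes with at least 50 transcript UMIs in each library, 1761 of 9298 (18.9%) held any, and the list had no such minimum. These made up 4.59% and 5.64% of the transcript UMIs of the 48 genes, against 0.390% and 0.389% for nonsense-mediated decay models over all genes. Hnrnpdl had 36.6% and 32.8%, Hnrnpa1 19.2% and 19.0%, Hnrnph3 16.7% and 17.5%, Srsf2 12.7% and 10.6%, Srsf3 10.1% and 14.2%, Tra2a 8.18% and 12.3%, and Srsf1 9.48% and 9.94%. Other members of the list were near 0, such as Hnrnpk (0.241% and 0.124%) and Hnrnpu (0.201% and 0.0853%). The list was drawn up with earlier results of these data known, so its count is a description.

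Other groups held less of their UMIs in these transcripts than the splicing regulators did. Their counts of carrying genes stand beside the 18.9% over all genes with at least 50 UMIs in each library. The counts for translation, oxidative phosphorylation and cytosolic chaperone genes were not below that percentage. Of 38 translation factors and tRNA synthetases, 10 held decay-class UMIs, at 0.183% and 0.199% of their transcript UMIs, and Eif4a2, a translation initiation helicase, had 9.21% and 11.6%. Of 32 folding and translocation genes of the endoplasmic reticulum 5 did (0.0639% and 0.0642%), of 42 nuclear oxidative phosphorylation genes 10 (0.0599% and 0.0538%), and of 27 cytosolic chaperone and proteasome genes 6 (0.0681% and 0.0746%). Of 31 secretory granule and prohormone genes 4 did (0.00976% and 0.00853%), and prohormone genes count in that denominator. Among these 4, Ptprn2 had 237 and 186 decay-class UMIs. They were 35.4% and 28.8% of its transcript UMIs and 10.7% and 10.3% of its gene-table UMIs. By transcripts Stx1a had 7.81% and 15.8%, Scg3 0.473% and 0.806%, and Syt7 0.205% and 0.325%. Of 9 hormone genes none held any. Among 25 factors of the decay pathway and the exon junction complex, only Dcp1a, a cofactor of mRNA decapping, held any, with 16 and 27 UMIs (20% and 30.7%).

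Non-stop decay transcripts were rare and came from few genes. Tatdn1-209, of a putative DNase gene, had 169 and 159 of the 411 and 322 UMIs and took 56.0% and 59.8% of the gene. Zfr-203, of a zinc finger RNA-binding protein, had 145 and 102 UMIs (13.8% and 11.1%). Erc2-206, of an active-zone scaffold gene, had 33 and 29 and was found in beta, delta and PP cells. Rbm33-203 had 36 and 3, and Csrp2-204 had 6 and 7. Tatdn1-209 took 62.9% and 63.1% of the gene in beta cells and 48.5% and 55.7% in delta cells, and counts in other types were too low for more.

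Whether a decay-class transcript took another part of its gene in another cell type was tested for 853 members among 21086 transcripts, with edgeR's diffSpliceDGE on sums per library and type, the library as a block, and Benjamini-Hochberg adjustment over all transcripts. Alpha, delta and PP cells were each set against beta cells, and the mean of the endothelial class and stellate cells (non-endocrine) against the mean of the 4 hormone types. Of all transcripts, 0.218% passed as higher and 0.0806% as lower in alpha cells, 0.223% and 0.0664% in delta cells, 0.133% and 0.0617% in PP cells, and 0.232% and 0.171% in non-endocrine cells. Of the members, 2 were higher and 2 lower in alpha cells (0.234% each), 4 and 2 in PP cells (0.469% and 0.234%), and 3 and 1 in non-endocrine cells (0.352% and 0.117%). In delta cells 0 passed in either direction, with 37 (4.34%) at an unadjusted p under 0.05 against 3.61% of all transcripts, and limma's diffSplice also called 0. Each of these shares rests on 4 or fewer transcripts, so none is read as apart from the background. The labels do not tell whether each library is of its own mice. With the library as a block, p-values rest on the scatter left between sums after library differences are taken out. They do not measure spread between animals. Clusters made from the same molecules make the tests circular in part.

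Tsc22d1-213 passed in alpha, PP and non-endocrine cells. Its model has support level 5, the weakest, and is tagged as incomplete at its start. Tsc22d1 encodes a leucine zipper regulator of transcription, and the transcript, from chr14:76418354-76441628, took 13.4% of the gene's UMIs in beta cells of library 1 and 20.9% in library 2. It took 4.49% and 3.51% in alpha cells, 8.31% and 5.35% in delta cells, and 1.33% and 0.595% in PP cells. No UMI of it was seen among 291 and 195 of the gene in non-endocrine cells. The beta values lay above all others in both libraries. The difference in share was -13.1 points ± 6.01 (SD, n = 2) in alpha cells, -16.2 ± 5.83 in PP cells and -9.03 ± 0.870 in non-endocrine cells, and edgeR's adjusted p was 0.0009, 8.8e-07 and 0.001. In alpha cells the call was lost with limma and without the block.

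Rpl22l1-204 took a larger part of its gene outside beta cells, mainly in library 2. The transcript, from chr3:28805510-28807422, uses another splice site than the reference. It took 1.36% and 2.12% in beta cells, 3.09% and 10.6% in alpha cells, and 2.70% and 20.9% in PP cells. In the endothelial class it took 15.4% and 32.6%, and in stellate cells 4.17% and 37.7%. The values were higher than in beta cells in each library, but in alpha, PP and stellate cells the library 1 difference was small: it was 1.73 and 8.48 points in alpha cells and 1.34 and 18.7 points in PP cells. edgeR's adjusted p was 9.8e-05 in alpha, 8.9e-08 in PP and 1.2e-11 in non-endocrine cells, and it was 1 in all 3 without the block. Its non-endocrine share without cluster 15 was 8.16% of 49 UMIs and 41.5% of 94. Transcript UMIs of this gene came to 157% of its gene-table UMIs.

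Eif4a2 had 2 such transcripts, of different cell types. Eif4a2-204, with an extra exon, took 10.4% and 33.1% in non-endocrine cells and 1.55% and 3.75% in hormone cells (adjusted p = 0.0021, edgeR). It rose by 19.1 points ± 14.4 (SD, n = 2), and its share without cluster 15 was 8.24% and 27.3%. Eif4a2-217, which skips an exon, took 8.12% and 12% in PP cells and 2.76% and 1.44% in beta cells (adjusted p = 0.0037, edgeR). Without the block both calls were lost.

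Clk1-210 and Tmem176a-207 passed in PP cells. Clk1, a kinase that phosphorylates SR proteins, had Clk1-210, which skips an exon, at 6.15% of 65 UMIs and 42.0% of 50 in PP cells, and at 3.76% and 2.03% in beta cells (adjusted p = 0.0064, edgeR). Library 2 alone set this result, with a difference of 40.0 points against 2.39 in library 1, and the call was lost without the block (adjusted p = 0.49, edgeR). Tmem176a-207, whose stop is the reference one, took 2.44% and 2.73% in PP cells and 8.93% and 9.51% in beta cells, a difference of -6.63 points ± 0.206 (SD, n = 2; adjusted p = 0.042, edgeR). That call was lost with limma, without the block, and with clusters led by their own markers only. Pigk-206, Adarb2-203 and Rasgrp2-216 also passed but had fewer than 50 UMIs of the gene on a side.

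**Figure D4:**
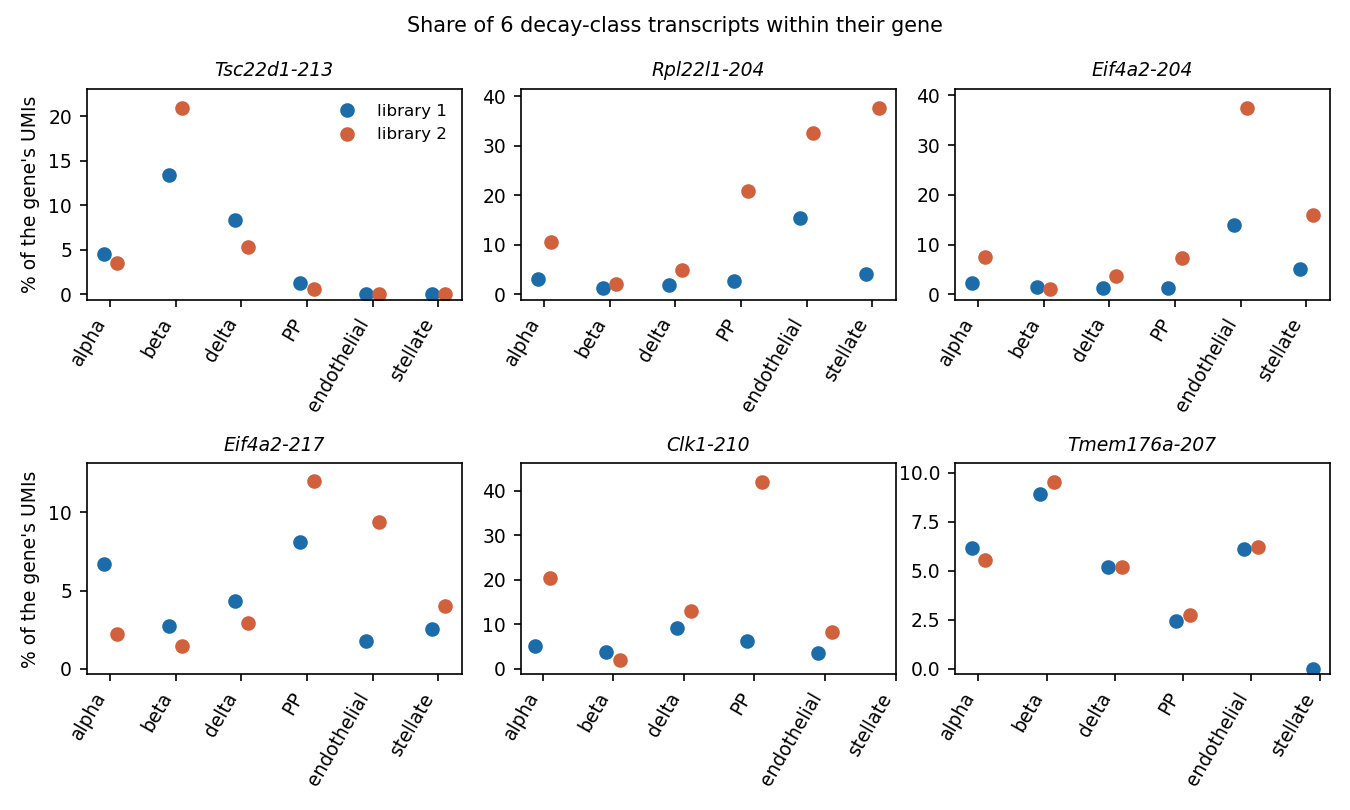
Share of the gene's UMIs (vertical axis, percent, own scale per panel) held by 6 decay-class transcripts in 6 cell types, with 1 point per library and values on under 20 UMIs of the gene left out. Tsc22d1-213 is highest in beta cells, at 13.4% and 20.9%, and Rpl22l1-204 and Clk1-210 are highest in library 2.

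The level of decay-class transcripts was then compared over 14073 transcripts that passed edgeR's filter, 239 of them members. Here and below, log2 fold changes are after TMM, edgeR's scaling between sums, whereas CPM are without it. The TMM factors were 0.68 and 0.72 in alpha sums and 1.06 and 0.95 in beta sums. A log2 fold change in alpha cells can thus lie above the ratio of the CPM printed. Of all transcripts, 8.21% were higher and 8.53% lower in alpha than in beta cells, 7.52% and 4.27% in delta cells, 7.62% and 9.62% in PP cells, and 10.4% and 19.2% in non-endocrine cells. Of the members, 21 (8.79%) were higher and 14 (5.86%) lower in alpha cells, 7 (2.93%) and 4 (1.67%) in delta cells, 15 (6.28%) and 11 (4.60%) in PP cells, and 9 (3.77%) and 30 (12.6%) in non-endocrine cells. The median log2 fold change of the members was 0.23, 0.00085, 0.20 and -0.42, against 0.02, 0.03, -0.05 and -0.46 over all transcripts. The split of higher to lower members turned with scaling: with library totals in place of TMM it was 8 to 35, 6 to 5, 9 to 20 and 17 to 7, and over all transcripts 644 to 3334, 1009 to 625, 760 to 2153 and 2232 to 1092, while the medians of all transcripts moved to -0.48, -0.01, -0.33 and 0.14. With DESeq2 and its own size factors the members split 15 to 8, 4 to 2, 10 to 5 and 14 to 12. All transcripts then split 914 to 863, 680 to 339, 918 to 846 and 1874 to 1592. Fewer cells of a state and less RNA per cell cannot be told apart in such sums.

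T2-202 stood out among transcripts of beta cells. It was at 122 and 84.2 CPM in beta cells, 6.45 and 8.01 in alpha cells, 18.5 and 11.9 in delta cells, and 4.65 and 0 in PP cells. It fell by 3.26 on the log2 scale in alpha cells (SE 0.33, adjusted p = 5.9e-13, edgeR), by 2.72 in delta cells and by 4.97 in PP cells. Its share of T2 was similar in beta (75.1% and 73.2%) and delta cells (72.0% and 83.6%), the types with at least 50 UMIs of the gene, so the level of the whole gene differed. The model overlaps AC164431.1 on the same strand.

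Mlxipl-206 and Atp2a2-203 were also highest in beta cells. Mlxipl-206, of the gene for the glucose-responsive factor ChREBP, was at 26.9 and 17.0 CPM in beta cells, 20.1 and 11.9 in delta cells, 1.76 and 2.83 in alpha cells and 2.33 and 3.37 in PP cells. It fell by 2.64 in alpha cells (SE 0.51, adjusted p = 3.7e-05, edgeR) and by 2.72 in PP cells. Atp2a2-203 was at 55.7 and 43.8 CPM in beta cells and 4.69 and 8.01 in alpha cells, a fall of 2.42 (SE 0.35, adjusted p = 6.9e-08). Slc38a6-201, of an amino acid transporter family, fell by 3.46 in alpha cells, with 10.4 and 7.97 CPM in beta and 1.17 and 0 in alpha cells. Slc35b1-202 and Hs3st6-203, of a heparan sulfate sulfotransferase, fell by 0.77 and 1.16 in delta cells, and neither call held with DESeq2 or without the block.

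Some were higher outside beta cells. Cryba2-202, of a crystallin gene, was at 51.0 and 68.3 CPM in alpha cells, 21.1 and 26.2 in delta cells, and 10.4 and 9.30 in beta cells, a rise of 3.07 in alpha cells (SE 0.29, adjusted p = 2.6e-14, edgeR). Its share of the gene was 12.9% and 13.3% in alpha and 13.7% and 16.1% in beta cells. Snhg11-205, of a host gene of small nucleolar RNAs, was at 15.8 and 16.0 CPM in alpha cells, 14.9 and 20.8 in delta cells, and 2.17 and 1.59 in beta cells, and rose by 3.51 and 3.25. Lpl-203, of lipoprotein lipase, rose by 2.08 in alpha cells, with 34.6 and 17.4 CPM against 13.9 and 4.52, and lost the call without the block.

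Rabgap1l-205 rose by 1.40 in delta cells and by 1.51 in PP cells, where it was at 60.2 and 34.5 and at 54.7 and 32.0 CPM, against 23.8 and 13.0 in beta cells. It took 66.2% and 70.4% of its gene in PP cells and 39.6% and 31.4% in beta cells, a difference that was not among those called. Zfp950-203, of a zinc finger gene, rose by 1.03 in PP cells (43.0 and 38.7 CPM against 25.1 and 22.8), and Serp2-202 by 1.32 in delta cells, but both calls were lost under several settings. Rpl22l1-204 rose by 2.47 in alpha cells and 3.02 in PP cells, with 8.79 and 90.0 CPM in alpha cells, 8.14 and 179 in PP cells, and 4.33 and 15.9 in beta cells. Its level was higher in library 2 in all of these types, and both calls were lost without the block, as were those of Rabgap1l-205. Tsc22d1-213 fell by 3.06 in PP cells. Mpzl1-208, of a cell surface glycoprotein gene, had 40 and 19 UMIs in beta cells and 0 in PP cells, which makes it at least 3.41-fold lower there, with a floor of 3 counts over both libraries, and it lost its call without the block.

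In non-endocrine cells 5 called transcripts of the hormone types were at 0 in both libraries. Gipr-204, of the receptor for the incretin GIP, had 207 and 212 UMIs in hormone cells, with 30.1 and 35.6 CPM in beta cells, and was at least 5.00-fold lower in non-endocrine cells. Mlxipl-206 (168 and 118 UMIs), Tsc22d1-213 (127 and 133) and Snhg11-205 (70 and 121) were at least 3.41-fold, 3.10-fold and 2.28-fold lower, with the same floor. Zcrb1-206, named here after its values were seen, had 41 and 53 UMIs and was at least 1.12-fold lower (adjusted p = 0.041, edgeR). All 5 passed edgeR's test, and Snhg11-205 lost its call with library totals in place of TMM. Gipr itself had no transcript UMI in non-endocrine cells, so the decay-class transcript was missing together with its gene.

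Hnrnpa1-203, Eif4a2-204, Rpl22l1-204 and Tmem234-203 rose in non-endocrine cells. Hnrnpa1-203 was at 51.5 and 111 CPM there and 19.0 and 15.8 in hormone cells, a rise of 1.65 (SE 0.36, adjusted p = 1.5e-04, edgeR). Eif4a2-204 was at 32.3 and 78.0 against 4.28 and 10.8 CPM, a rise of 2.25 (SE 0.53, adjusted p = 5.7e-04). Rpl22l1-204 was at 22.0 and 291 against 6.60 and 80.3 CPM, a rise of 1.67 that was lost without the block. Tmem234-203 rose by 0.86, from 30.0 and 25.5 to 87.0 and 52.9 CPM. It lost its call without cluster 15, the one with duct markers, without the block and with no filter on low counts.

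**Figure D5:**
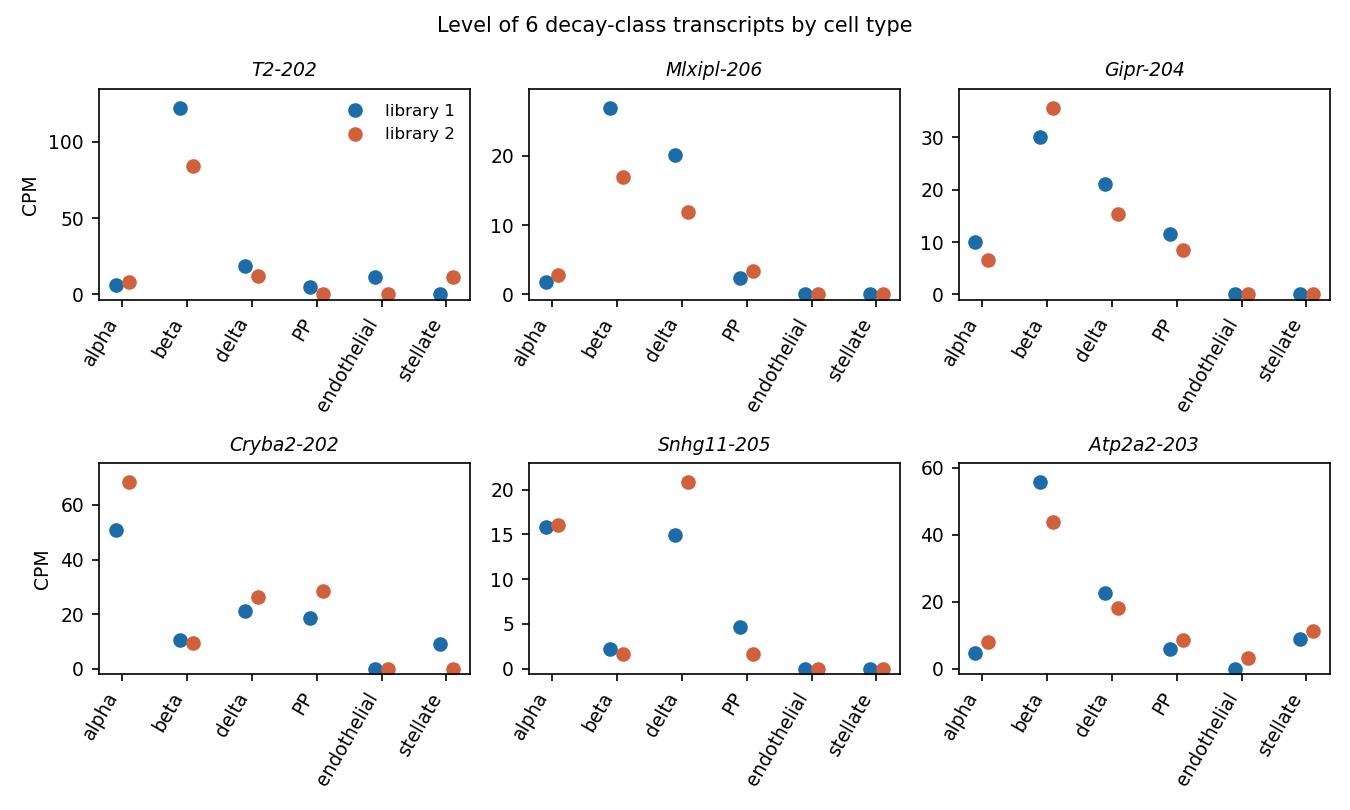
Level (vertical axis, CPM, own scale per panel) of 6 decay-class transcripts in 6 cell types, with 1 point per library. T2-202, Mlxipl-206, Gipr-204 and Atp2a2-203 are highest in beta cells, Cryba2-202 in alpha cells, and Snhg11-205 in alpha and delta cells.

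The genes of the decay pathway were compared in the gene table, where 9.13% of 13265 genes were higher and 9.91% lower in alpha cells, 8.78% and 5.01% in delta cells, 8.89% and 8.43% in PP cells, and 13.6% and 17.1% in non-endocrine cells. Of 24 decay and exon junction factors tested, 1 rose and 2 fell in alpha cells, 0 and 2 in delta cells, 3 and 3 in PP cells, and 0 and 2 in non-endocrine cells. Nbas, which cooperates with UPF1, fell in all 4 comparisons: it was at 84.9 and 92.8 CPM in beta cells, 26.7 and 34.1 in alpha cells, 54.9 and 53.3 in delta cells, and 32.8 and 21.3 in PP cells. It fell by 1.12 in alpha cells (SE 0.22, adjusted p = 3.2e-04, edgeR). In delta cells it lost the call with DESeq2 and without the block, and in non-endocrine cells with DESeq2, with library totals and without cluster 15.

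Upf1, the central helicase, was at 28.7 and 38.3 CPM in beta cells, 18.3 and 17.7 in delta cells, and 8.75 and 9.81 in PP cells. It fell by 0.85 in delta cells (adjusted p = 0.018, edgeR) and by 1.44 in PP cells (adjusted p = 0.012). Upf3b, which links UPF2 to the exon junction complex, fell by 0.57 in alpha and 0.97 in non-endocrine cells, and Rnps1, a peripheral exon junction protein, rose by 0.68 in alpha cells. Rbm8a and Magohb, of the exon junction core, rose by 0.77 and 1.06 in PP cells. Without the block the calls of Upf1 in delta cells, of Upf3b and Rnps1 in alpha cells and of Rbm8a and Magohb in PP cells were lost. That of Upf1 in delta cells was also lost with DESeq2, and those of Upf3b, Rnps1 and Rbm8a without the filter on low counts. With library totals in place of TMM, Rnps1, Rbm8a and Magohb lost their calls and the factors split 0 to 5, 0 to 2, 0 to 9 and 3 to 1, while all genes split 708 to 3335, 1111 to 717, 656 to 2746 and 2295 to 1401. The median of the list was 0.07, -0.11, -0.12 and -0.17, against 0.02, 0.0040, -0.03 and -0.25 over all genes.

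Of 25 genes known from textbooks as targets of the pathway, 11 rose and 1 fell in alpha cells, 2 and 4 in delta cells, 11 and 1 in PP cells, and 6 and 3 in non-endocrine cells. The rises include Rpl12 in alpha and PP cells and Rpl3 in alpha, PP and non-endocrine cells. The gene table held far fewer UMIs of both genes than the transcripts did. Decay-class UMIs of Rpl12 were 1.90% and 1.83% of its transcript UMIs but 32.5% and 32.3% of its gene-table UMIs. In Rpl3 they were 0.007% and 0.0154% against 0.136% and 0.341%. The list's median log2 fold change was 0.64, 0.06, 0.54 and 0.14. With library totals the counts were 5 to 4, 1 to 4, 6 to 5 and 9 to 1. Atf3, a stress-induced transcription factor, was at 1.47 and 10.0 CPM in beta cells, 64.3 and 434 in alpha cells, and 26.2 and 975 in PP cells, a rise of 6.11 and 6.35. It was at 21.8 and 109 CPM in delta cells, a rise of 3.86, and at 58.2 and 2150 in non-endocrine cells. Without the block edgeR's adjusted p of Atf3 was 0.087, 0.059 and 0.37 in alpha, PP and delta cells. Its level was higher in library 2 in all of these types, as that of Rpl22l1-204 was, and the part of either in the other was not tested.

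Several snoRNA host genes and growth arrest genes rose in alpha and PP cells. In alpha cells Gas5 was at 213 and 562 CPM against 177 and 329 in beta cells, a rise of 0.92 after TMM scaling, which the CPM lack. Zfas1 rose by 1.34, Snhg1 by 1.24, Gadd45a by 1.22 and Gadd45b by 1.31. In PP cells Snhg1 rose by 1.49, Snhg12 by 1.36, Snhg15 by 1.71 and Gas5 by 1.10. Without the block all of these PP calls were lost, as were those of Gas5, Snhg1 and Gadd45b in alpha cells. Snhg15 was at 7.65 and 60.5 CPM in PP cells and 7.9 and 15.3 in beta cells, so by CPM it was higher in library 2 only. None of Gas5, Zfas1, Snhg1, Snhg12, Snhg15, Gadd45a and Gadd45b passed edgeR's test in delta cells. In non-endocrine cells Gadd45b rose by 1.54 and Snhg12 by 1.22, whereas Snhg15 fell by 2.28 (adjusted p = 0.02, edgeR). The Snhg12 call there was lost without the block and without cluster 15. In delta cells Atf4 and Ddit3, of the integrated stress response, and Cars, a tRNA synthetase gene, fell by 0.99, 0.87 and 0.77. The calls of Atf4, Ddit3 and Cars were lost with DESeq2 and without the block. Upf1 is a member of this list too, since it is held to target its own mRNA. In 11 of the 25 genes a decay-class transcript had UMIs, 1021 in all, at 1.39% and 1.29% of their transcript UMIs. The list therefore mostly measures whole genes, many of whose transcripts are not of the decay class.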

How the data were processed

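The authors deposited raw UMI counts per cell for genes and for transcripts, per the file headers, and a table of kept cells with cluster names. Per the submitters' processing notes, Seurat and the build mm10 were used; the aligner, the counting tool and its use of strand are not given in the sources used here, nor is which subset the transcript tables hold. Transcripts were matched to GENCODE M21 by identifier (69648 of 69994). UMIs of kept cells were added up by library and cell type. Types needed 20 cells per library, so 6 types and 12 sums were tested and macrophages were not. Sums were fitted in edgeR 4.0.16 (R 4.3.3; TMM, filterByExpr, quasi-likelihood) on cell type and library, the library being a block because each library gives every type. Usage was tested with diffSpliceDGE for transcripts with at least 10 UMIs and 5% of their gene in a type. Adjusted p under 0.05 was called. limma 3.58.1 and DESeq2 1.42.0 served as alternatives, and those on the gene table, the same gene mix, genes with 50 to 150% of UMIs assigned and cluster 15 were added after the data were seen. The code was tested on simulated data. Intervals are exact (Clopper-Pearson, 95%). Doublets were not removed further.

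Named were the 20 genes with the most member UMIs, the 10 with the highest share, per comparison up to 6 usage and 4 abundance calls in each direction with 50 UMIs, the 5 non-stop transcripts with most UMIs and up to 4 genes per decay list by adjusted p; further list genes were named after their values were seen. Members and lists were chosen with earlier results of these data known. One gene of the decay list that the rule names is not reported here.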

Additional observations from a re-analysis of the deposited data

How the results depend on the processing

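The share of decay-class UMIs over all cells was 0.393% as the mean of the libraries. It was 3.78% over genes with a member only, 0.503% without hormone genes, 0.260% with models of support level 1 or 2, 0.351% without incomplete models, 0.386% in clusters led by their own markers, 0.398% as a mean over cells, 0.346% over the gene table and 0.385% without Tmem234. The difference from beta cells (-0.0957, -0.0091 and -0.0547 points in alpha, delta and PP cells) turned to 0.256, 0.389 and 0.248 over genes with a member, to 0.0111, 0.0435 and 0.0541 without hormone genes, and to 0.0145, 0.00152 and 0.0158 with the same mix of genes. In delta cells it was 0.0134 as a mean over cells and -0.0265 with own-marker clusters. The non-endocrine difference of 0.0977 points became -0.031 without hormone genes, 0.0465 with support level 1 or 2, 0.00274 with the same mix of genes and 0.0951 without cluster 15. Hormone genes hold UMIs and no member, so leaving them out of the denominator raises each share by construction. Why the types differ, and why the differences moved under the other alternatives, was not tested.

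Leaving out either library gave shares of 0.392 to 0.395% over all cells and differences of -0.12 to -0.0711 points in alpha, -0.0175 to -0.000706 in delta, -0.0916 to -0.0179 in PP and 0.0816 to 0.114 in non-endocrine cells, each with its sign kept.

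The median share per gene, as the mean of the medians of the libraries, was 1.96% (1.93 to 2.00% with either library left out), 2.49% from 20 UMIs, 0.863% from 200 and 0.985% over the gene table. Called members by level were 23, 6 and 15 in alpha, delta and PP cells with DESeq2, 12, 4 and 7 without the replicate block (35, 11 and 26 with it), and 24 in non-endocrine cells without TMM. By usage they were 8, 24 and 147 in alpha, PP and non-endocrine cells with limma (which called 148, 469 and 3907 of all 21086 transcripts), 0, 1 and 1 without the replicate block, and 1 in delta cells with at least 50 UMIs or own-marker clusters. In alpha cells 2 were called when only genes with transcript UMIs at 50 to 150% of the gene table were used. Textbook targets called were 7 and 1 in alpha and delta cells with DESeq2 and 3, 0, 2 and 4 without the replicate block. Decay factors called were 0 in delta cells with DESeq2, 5 and 4 in alpha and non-endocrine cells without TMM, 1 in alpha cells without the filter, and 1, 0 and 3 in alpha, delta and PP cells without the replicate block. All errors rest on 2 libraries, and the few UMIs of most members limited what could be called. The library was the block by design, since same-numbered sums come from the same library.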
